A study of Homo sapiens with 9 samples.

Results

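RNA polymerase II (RNAPII) peaks that appeared with both RECQL5 hairpins and with no other condition were examined in ChIP-seq data from HEK293 cells, a human embryonic kidney line. They were chosen by list membership: a peak upon shRNA7 was kept when it shared at least 1 bp with a peak upon shRNA5 and with no peak of the 3 other RNAPII lists. The rule kept 4036 of the 32124 shRNA7 peaks (12.6%), out of 142069 peaks in the 5 lists. These 4036 peaks are called the gained peaks here. Membership rests on which peaks were called, so the number of gained peaks and their tags, scores and overlaps are given as a description only.

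In 3 of the RNAPII libraries, HEK293 cells had been infected with lentivirus carrying the empty control vector (control shRNA), shRNA5 or shRNA7, the latter pair directed against RECQL5. The study checked the knockdown at the protein level and describes the stronger depletion upon shRNA7. In the 2 others, HEK293 T-REx cells carried a plasmid with full-length RECQL5 behind a doxycycline-responsive promoter and were grown with 0.0 or 1.0 ng/ml doxycycline; whether these cells were 1 clone is not given in the sources used here. The antibody, 4H8, was directed against all forms of RNAPII, and the 4 remaining samples were IgG libraries that served as background of the peak calls. Each group was 1 library, so no difference below has a replicate check, no test between conditions was possible, and the intervals given are 95% intervals that cover counting error only.

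RNAPII transcribes protein-coding genes, slows or pauses after initiation, moves through exons and introns at a changing speed, and continues past the polyadenylation site before it leaves the DNA. ChIP-seq shows where on the genome it resides at the time of fixation, so that a slower or stalled polymerase gives more signal than a fast one. RECQL5 is a helicase of the RecQ family that binds RNAPII directly and is known to restrain elongation.

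The sequences at the summits of 6 gained peaks, each among the strongest of its kind, are shown to give the base composition and setting of these sites. Each covers 200 bp of GRCh37 (hg19) centred on the summit, read on the plus strand, and touches no annotated exon. Capitals mark the hexamer AATAAA, the canonical polyadenylation signal, or its reverse complement TTTATT.
past the end of BASP1, chr5:17278673-17278872: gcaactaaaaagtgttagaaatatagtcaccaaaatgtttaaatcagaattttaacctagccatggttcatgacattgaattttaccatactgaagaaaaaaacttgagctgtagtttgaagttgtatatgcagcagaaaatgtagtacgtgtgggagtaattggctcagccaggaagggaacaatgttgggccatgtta
past the end of CNOT2, chr12:70751738-70751937: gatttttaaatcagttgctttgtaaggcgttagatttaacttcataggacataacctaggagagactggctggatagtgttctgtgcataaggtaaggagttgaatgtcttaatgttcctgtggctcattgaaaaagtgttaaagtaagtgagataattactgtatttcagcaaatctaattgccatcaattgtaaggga
intron of TBX18, chr6:85436208-85436407: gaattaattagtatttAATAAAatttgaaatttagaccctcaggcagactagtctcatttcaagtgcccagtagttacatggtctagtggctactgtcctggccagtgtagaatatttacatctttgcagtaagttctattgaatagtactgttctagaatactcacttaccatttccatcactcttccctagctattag
intron of REV3L, chr6:111686992-111687191: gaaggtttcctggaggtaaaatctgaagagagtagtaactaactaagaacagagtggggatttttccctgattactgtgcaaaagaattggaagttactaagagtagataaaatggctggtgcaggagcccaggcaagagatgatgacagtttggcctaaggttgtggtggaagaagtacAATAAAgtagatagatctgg
downstream of TRIM33, chr1:114931411-114931610: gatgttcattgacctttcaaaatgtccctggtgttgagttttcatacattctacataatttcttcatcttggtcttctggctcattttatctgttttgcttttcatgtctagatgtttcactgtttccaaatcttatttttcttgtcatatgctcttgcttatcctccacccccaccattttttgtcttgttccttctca
intergenic, past USP25, chr21:17270449-17270648: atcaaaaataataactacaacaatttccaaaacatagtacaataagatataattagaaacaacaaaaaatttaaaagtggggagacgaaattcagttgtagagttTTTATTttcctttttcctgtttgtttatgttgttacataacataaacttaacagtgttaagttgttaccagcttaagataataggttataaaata

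The first pair lies past the 3′ ends of BASP1, which codes for a membrane protein of nerve endings, and of CNOT2, which codes for a subunit of the CCR4-NOT deadenylase. TBX18 codes for a T-box transcription factor and REV3L for the catalytic subunit of DNA polymerase zeta, and both windows are intronic. The window past TRIM33, an E3 ubiquitin ligase gene, is downstream of the annotated end, and the last window is intergenic, 18.2 kb past the end of USP25, which codes for a deubiquitinase. AT content over these 200 bp was 64% for BASP1, 64.5% for CNOT2, 64% for TBX18, 58.5% for REV3L, 64% for TRIM33 and 75.5% for USP25.

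Hexamers and promoter motifs were then counted in the same 200 bp window, on both strands, at all gained peaks. AATAAA was present at 32.0% of them, against 23.7% of all shRNA7 peaks and 32.9% of the peaks seen with shRNA7 and in no other list, called shRNA7-alone peaks. It was less frequent at summits from 2 kb before to 5 kb past a gene end, away from promoters. There it was present at 27.2% of gained and 29.7% of shRNA7-alone peaks, against 34.3% and 35.8% at intronic summits. The TATA-type hexamer TATAAA, which can share its last 5 letters with AATAAA, was found at 21.7% of gained peaks, at 15.9% of all shRNA7 peaks and at 21.7% of shRNA7-alone peaks. GGGCGG, the core of the GC box, occurred at 2.11% of gained peaks (interval 1.71 to 2.60%), against 3.29% of shRNA7-alone peaks and 15.6% of all shRNA7 peaks. Of the gained peaks, 27.8% held CCAAT and 4.16% held TGACTCA, the AP-1 motif, against 26.04% and 3.86% of shRNA7-alone peaks and 23.3% and 3.48% of all shRNA7 peaks. Median AT content of the window was 61.5% at gained and at shRNA7-alone peaks and 55.5% over all shRNA7 peaks, and the part of base composition in these shares was not tested. A match only shows that the letters are present.

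Of the whole shRNA7 list, 51.9% of peaks were overlapped by an shRNA5 peak. A total of 28378 shRNA7 peaks had no control peak, 12986 of these had an shRNA5 peak, and 8950 of those also met a peak of the doxycycline arm, which left the 4036. In the opposite direction, 78 of the 5287 control peaks were absent from both hairpin lists. Counted on the shRNA5 list, 5591 of 23698 peaks (23.6%) had an shRNA7 peak and nothing in the 3 other lists. One shRNA5 peak lay under 3574 of the gained peaks and several lay under 462, up to 5. Below, the partner of a gained peak is the shRNA5 peak that shares most bases with it. One shRNA5 peak can be the partner of several gained peaks, and the 4036 gained peaks had 3807 different partners.

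The lists differ in length and in the tags they hold. Tags inside peaks numbered 842310 for the control hairpin, 3778665 and 6698771 for shRNA5 and shRNA7, and 1449163 and 1539844 at 0.0 and 1.0 ng/ml doxycycline, and total reads per library are not part of the lists. Per the study's methods, read numbers were similar among the hairpin libraries and between the 2 doxycycline libraries. The lists used here hold 5287 control, 23698 shRNA5 and 32124 shRNA7 peaks. The study's methods describe more peaks for each, and the control list falls short by the largest factor. The gap in peak number between control and hairpin cells is thus smaller in the study's text, and why was not examined. Whether the study's larger set of control peaks held any gained peaks cannot be told here. Membership rests on the lists used here. The part of sequencing depth and of the IgG background in these memberships was not tested, and absence from a list means only that no peak was called. As a check of cell identity, NEFL, a neurofilament gene that HEK293 cells express, had a peak at its transcription start site (TSS) in 4 lists and LHX1 in 2, whereas PAX2 and NEFM had none. No list had a TSS peak at ALB, CD3E, HBB or INS, genes of liver, T cells, red cells and beta cells.

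Gained peaks were of middling strength in the shRNA7 list. Their median length was 2279.5 bp (686 to 17005), with a median of 102 tags (27 to 1135) and 44.3 tags per kb. The median significance score, which is −10 times the log10 of the peak caller's p-value, was 139 (50 to 2108), and 65.4% of gained peaks scored at least 100. By comparison, shRNA7-alone peaks had a median of 1475 bp, 59 tags and a score of 76.1, and shRNA7 peaks shared with the control list had 5598 bp, 424 tags and a score of 551.5. The listed false discovery rate (FDR) of gained peaks ran from 0 to 19.57%, with a median of 2.14%, and it was at most 5% for 2952 of them (73.1%).

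How these tag numbers compare with what was called in control cells was asked from the control list itself. In all, 3994 gained peaks (98.96%) held at least 35 tags, the smallest number of any control peak, and 2242 (55.6%) held at least 93, the control median. Peak calling itself sets a floor on tags, the fewest in any shRNA7 peak being 26, and the libraries were not scaled to each other. The same shares were not computed over all shRNA7 peaks. These shares therefore do not show that such peaks would have been called in control cells. Of the gained peaks, 1239 (30.7%) reached the control median of 48.2 tags per kb. The median of the whole shRNA7 list was also below it, at 45.9 tags per kb, with 44.3 for gained and 39.4 for shRNA7-alone peaks.

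With shRNA5 the same places usually gave smaller peaks. The shRNA5 partners had a median of 77 tags, 1807.5 bp and a score of 86.4, against 102 tags, 2279.5 bp and 139 upon shRNA7. Per site, the shRNA7 peak held 1.32 times as many tags as its shRNA5 partner (median, interval 1.29 to 1.36) and was 1.24 times as long, but its tags per kb were only 1.04 times those of the partner. With all shRNA5 peaks beneath a gained peak summed the ratio of tags was 1.25 (interval 1.22 to 1.28), and at the 2794 sites where 1 peak of each list met 1 of the other it was 1.41 (interval 1.38 to 1.44), both computed after seeing the data. A higher score upon shRNA7 was seen at 2916 sites (72.2%). The gained peak and its partner both scored at least 100 at 1267 sites (31.4%). Neither list was scaled to the other, so these ratios compare 2 libraries of unequal peak content. Summits of gained peak and partner lay a median of 528.5 bp apart and within 500 bp of each other at 1962 sites (48.6%), while shRNA5 peaks covered a median of 67.1% of the shRNA7 peak.

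**Figure D1:**
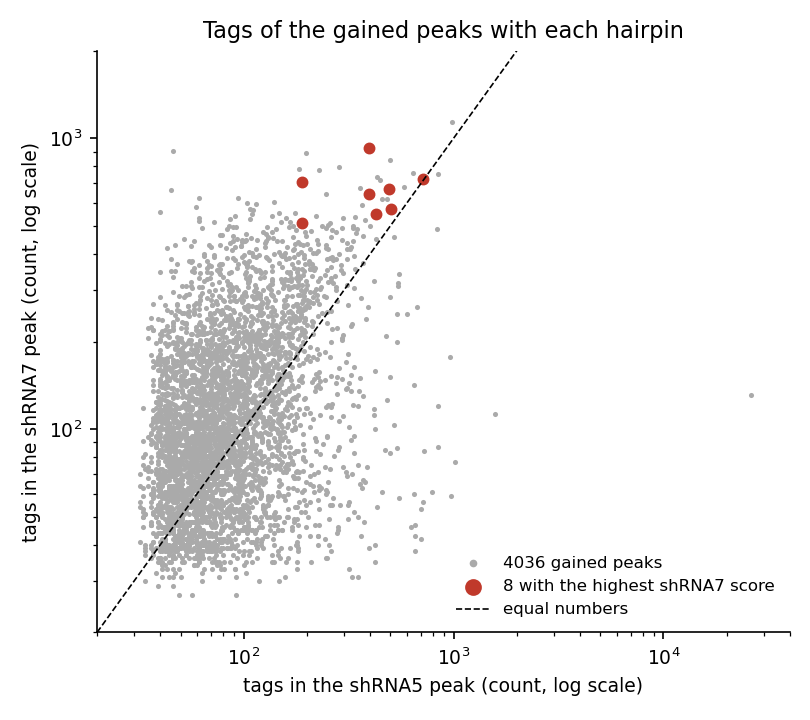
Each grey point is 1 gained peak, with its tags upon shRNA5 on the x axis and upon shRNA7 on the y axis, both counts on log scales. Red points are the 8 gained peaks with the highest shRNA7 score, and 67.0% of all points lie above the dashed line of equal numbers.

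At the edges of the rule, 87 gained peaks met their shRNA5 peak by fewer than 100 bp, the smallest overlap being 1 bp, and these had a median of 58 tags and a score of 86.2. Just outside, 84 shRNA7-alone peaks had an shRNA5 peak within 100 bp, with a median of 57.5 tags and a score of 76.8. On the other side of the rule, 57 gained peaks had a peak of the 3 other lists within 100 bp. At 68 gained peaks (1.68%) an shRNA5 peak beneath reached a control peak, among them the site of the widest partner, which spanned 59190 bp and held 26186 tags. At 335 gained peaks (8.30%) an shRNA5 peak beneath reached a peak of any of the 3 other lists.

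The nearest control peak was usually far away, in a list of 5287 peaks. Its median distance was 81.7 kb, with 655 gained peaks (16.2%) having one within 10 kb. Peaks of the doxycycline arm, whose lists are longer, were closer, at a median of 5.98 kb without the drug (47060 peaks) and 8.55 kb with it (33900 peaks). For shRNA7-alone peaks these medians were 118, 7.43 and 11.5 kb.

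Most of the strongest gained peaks lay at the 3′ ends of genes. Of the 8 with the highest shRNA7 score, 5 had a summit outside every annotated transcript and 1674 to 3311 bp past the end of a coding gene. The leading one, at chr20:62153520-62162641, spanned the gap between the converging genes PPDPF and PTK6, the latter a tyrosine kinase gene, with 927 tags upon shRNA7 (score 2108) and 395 upon shRNA5 (score 563). Its nearest control peak was 34.5 kb away, but peaks without and with doxycycline began 0.861 and 0.918 kb from it.

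Past BASP1, the peak at chr5:17275800-17283116 held 671 tags upon shRNA7 and 492 upon shRNA5, with its summit 3311 bp beyond the end of the longest coding transcript and 52.9 kb from the nearest control peak. At the end of CNOT2 the peak spanned chr12:70745267-70756919, with 724 tags upon shRNA7 and 714 in the larger of the pair of shRNA5 peaks beneath it, which together held 790. Tags were thus higher upon shRNA7 at BASP1 but not at CNOT2.

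CD2AP, which codes for an adaptor of the actin cytoskeleton, had 570 tags past its end upon shRNA7, at chr6:47593648-47600389, against 501 in the partner and 571 in both shRNA5 peaks beneath it. PPIG, a cyclophilin gene, had 548 and 425 tags at chr2:170496362-170504323. At PPIG a control peak lay 0.963 kb from the gained peak and a doxycycline peak 0.442 kb from it, so the absence from these lists rests on a short distance.

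Inside transcripts, the peak at SOX11, a transcription factor gene of neural development, was the most isolated of the 8. It covered most of the single exon at chr2:5833146-5842201, with 644 tags upon shRNA7 and 394 upon shRNA5, and the nearest peak of any of the 3 other lists was 1164 kb away. SMC6 and GEN1, neighbouring genes for a subunit of the SMC5/6 complex and for a Holliday junction resolvase, shared a peak at chr2:17963487-17970818 with 512 tags upon shRNA7, whereas its partner among the 3 shRNA5 peaks beneath held 189 and all 3 together 335. The remaining 1 of the 8, at chr5:135518768-135529150 across SMIM32 and an SMAD5 transcript, held 706 tags upon shRNA7 and likewise 189 in its partner, of 418 in the 4 shRNA5 peaks beneath it.

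Among promoter-proximal gained peaks the next strongest were at ENC1, an actin-binding protein gene, with 682 and 583 tags, and at ZCCHC14, with 442 and 89 tags. At ENC1 a control peak lay only 0.230 kb away and touched the shRNA5 partner. At ZCCHC14 a peak without doxycycline lay 0.647 kb away. The 3 strongest intronic ones were at TBX18 (510 tags upon shRNA7, 259 in the shRNA5 partner), TRIM4, an E3 ligase gene (619 and 456), and REV3L (492 and 332). Both shRNA5 peaks beneath the one at TBX18 together held 385 tags. At TRIM4 and REV3L the summits with the 2 hairpins were 15 and 125 bp apart. A doxycycline peak lay 0.798 kb from the gained peak at TRIM4.

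Downstream of gene ends, the strongest lay past UBAC1 (908 and 386 tags), SS18, which codes for a subunit of BAF chromatin remodellers (471 and 341), and TRIM33 (501 and 235). Both shRNA5 peaks beneath together held 457 tags past UBAC1 and 383 past TRIM33. The one past SS18 had no peak of the 3 other lists within 77.5 kb. Intergenic gained peaks were weaker. The 3 with the highest scores held 374, 224 and 216 tags upon shRNA7 and 104, 129 and 78 in their shRNA5 partners, at 19.5, 12.0 and 18.2 kb past KIAA1586, CIP2A and USP25. Past USP25 the 3 shRNA5 peaks beneath held 245 tags together, more than the gained peak.

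Position along genes was examined next. The rule did not use it directly, but the peaks that the rule removed were often promoter-proximal. A low promoter share was therefore partly set by the rule. Gene bodies, counted from 500 bp past the TSS of a protein-coding transcript to its end, took 3044 of the 4036 gained peaks (75.4%, interval 74.1 to 76.7%). Only 279 were promoter-proximal, within 500 bp of such a TSS (6.91%, interval 6.17 to 7.74%). This share depends on the annotation and the rule, being 2.90% by the summit alone, 23.02% with transcripts of all biotypes, 14.3% of the 56 peaks left by a fold enrichment of at least 10 and 38.0% when the control list alone had to be empty. A further 471 (11.7%) lay downstream within 10 kb of a gene end, 156 (3.87%) touched a non-coding gene and 86 (2.13%) were intergenic. Nearly the same split was seen for the 10240 shRNA7-alone peaks, with 74.8% in gene bodies and 7.25% promoter-proximal. It was the reverse for the 3746 shRNA7 peaks shared with the control, of which 75.1% were promoter-proximal and 18.8% in gene bodies. The 8950 peaks found with both hairpins and also in the doxycycline arm stood between, with 52.1% promoter-proximal (interval 51.04 to 53.1%).

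**Figure D2:**
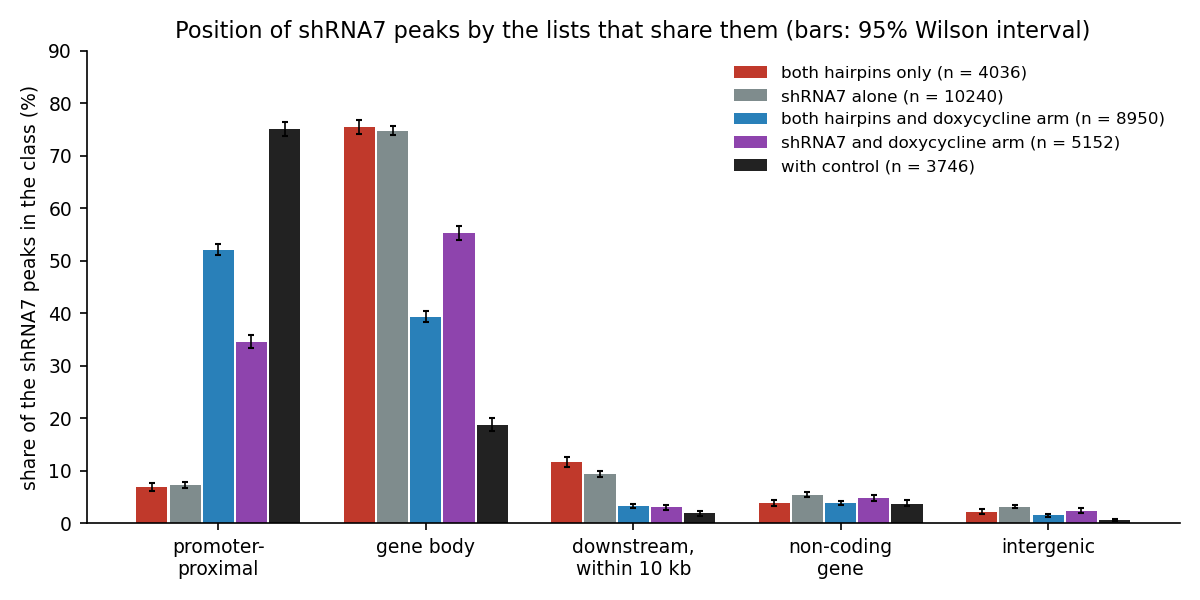
Bars give the share of shRNA7 peaks (y axis, percent) in each position class (x axis) for the 5 ways in which the other lists share them, with 95% Wilson intervals. The gained peaks (red) and the shRNA7-alone peaks (grey) have about 75% in gene bodies, and the peaks shared with the control (black) have 75.1% near promoters.

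Within gene bodies, the summit of 2280 gained peaks lay in an intron (74.9%), of 375 in a UTR (12.3%), of 59 in a coding exon (1.94%) and of 330 beyond the transcript, although the peak touched it (10.8%). The last group was the strongest, with a median of 208 tags and a score of 302, against 91 tags and 119 at intronic summits. Upon shRNA5 the same order held, with 96.5 and 75.5 tags. Summits in a UTR or beyond the transcript were more frequent than among the 7655 shRNA7-alone gene-body peaks, where they made up 9.12% and 4.64%, and intronic ones were less frequent (74.9% against 83.6%), with intervals that did not overlap.

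Gene ends were therefore measured directly. Among the 3757 gained peaks away from promoters, 1006 had a summit from 2 kb before to 5 kb past the end of a coding gene (26.8%, interval 25.4 to 28.2%), against 18.9% of shRNA7-alone peaks (interval 18.1 to 19.7%) and 41.3% of those shared with the control (interval 38.2 to 44.5%). Peaks of both hairpins and the doxycycline arm were close to the gained peaks, at 24.9% (interval 23.6 to 26.2%), and those of shRNA7 and the doxycycline arm were lowest, at 13.8%. The 2 kb just past the end held 464 of them (12.4%), more than the last 2 kb of the gene (232, 6.18%).

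The share depended on peak strength, and gained peaks were also the stronger ones. With scores under 100 the share near a gene end was 15.3% of gained and 15.6% of shRNA7-alone peaks, and between 100 and 200 it was 23.8% and 24.4%. Only at scores of 200 or more were the gained peaks higher, with 41.3% (interval 38.7 to 44.05%) against 34.2% (interval 30.7 to 37.9%). Among peaks of 1500 to 3000 bp the shares were 22.4% and 21.9%.

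**Figure D3:**
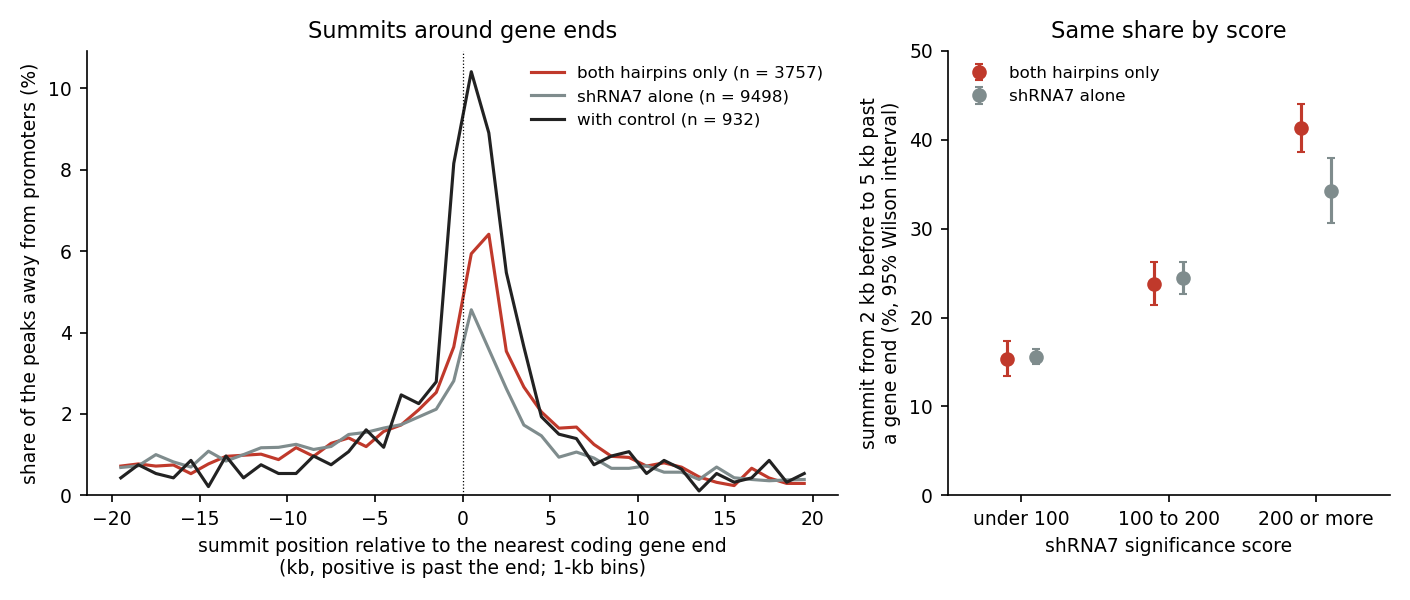
The left panel gives the share of peaks away from promoters (y axis, percent) by summit position in 1-kb bins relative to the nearest coding gene end (x axis, kb), with a maximum just past the end for all 3 classes. The right panel gives the share within 2 kb before to 5 kb past the end for 3 ranges of the shRNA7 score, with 95% Wilson intervals, and shows it climbing with score from 15.3 to 41.3% for gained peaks.

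Along the gene, both ends were favoured over the middle. Of the 2521 gene-body summits inside exactly 1 gene, 15.1% were in the first 10% of the gene and 15.4% in the last 10%, while the stretch from 50 to 60% held 7.18%. For shRNA7-alone peaks these shares were 13.1, 13.9 and 8.66%. Peaks shared with the control had 6.12% in the first 10% and 27.9% in the last. The median gained summit was 26.3 kb from the TSS, and 30.8% were within 10 kb of it.

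AT content, taken over 2 kb around the summit, was a median of 60.6% at all gained peaks (interval 60.3 to 60.8%). It was 55.0% at promoter-proximal ones, 58.6% downstream of genes and 61.6% at intronic summits. Gene-body gained peaks had 61.2% (interval 61.0 to 61.4%), above the 58.2% of gene-body peaks shared by both hairpins and the doxycycline arm (interval 58.0 to 58.5%) and the 56.6% of those shared with the control (interval 56.0 to 57.5%). For shRNA7-alone gene-body peaks it was 61.0% (interval 60.8 to 61.1%), which overlapped the interval of the gained ones. Intervals did not overlap over all peaks, where shRNA7-alone peaks had 60.1% (59.95 to 60.25%). At intronic summits they had 61.15% (61.0 to 61.3%) against 61.6% (61.4 to 61.9%). Among peaks of 1500 to 3000 bp it was 59.45% (59.25 to 59.7%) against 60.7% (60.35 to 60.9%). At scores of 200 or more it was 59.6% against 60.5%, also without overlap, whereas intervals overlapped in both lower score ranges. Medians hardly differed between score ranges, with 60.6, 60.6 and 60.5% for gained peaks with scores under 100, of 100 to 200 and of 200 or more.

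A total of 2111 of 19834 coding genes (10.6%) had a gained peak in the body, 1491 of them with 1 peak, 383 with 2 and 237 with 3 or more. They were long, with a median of 52.1 kb against 24.9 kb for all coding genes, and mostly had RNAPII at the start in the hairpin libraries. A TSS peak was called at 82.2% of them upon shRNA7 and 72.4% upon shRNA5, and at 83.7% without doxycycline, but at 26.3% in the control list (interval 24.5 to 28.2%). Over all coding genes these shares were 48.6, 40.6, 52.2 and 15.4%. The 2711 genes with an shRNA7-alone peak in the body and no gained peak were closer, with a median of 46.9 kb and shares of 76.7, 63.8, 78.4 and 20.5%. Of the gained peaks in gene bodies, 931 of 3044 lay in a gene with a control TSS peak (30.6%, interval 29.0 to 32.2%), somewhat more than the 26.0% of shRNA7-alone peaks (interval 25.1 to 27.0%). This difference was seen in each score range, at 32.3% against 26.2%, 30.04% against 25.8% and 29.3% against 25.3%, with intervals that overlapped above a score of 100.

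Some gained peaks lay close together. Joining those at most 10 kb apart gave 3174 runs, of which 2544 held 1 peak, and 558 peaks were in the 163 runs of 3 or more. Runs were not counted for other shRNA7 peaks, so these numbers do not show whether gained peaks cluster more than others. Whether neighbouring calls were parts of 1 broad region was not tested. The run with most peaks, 9, was at chr4:20338651-20373408 in SLIT2, followed by 7 at chr6:93947310-93970779 over the 3′ end of EPHA7.

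SLIT2, which codes for a secreted axon guidance ligand, held the most gained peaks of any gene, 26 over 369 kb (chromosome 4, 20253528 to 20622184), all with intronic summits from 23.1 to 342 kb past the TSS. Upon shRNA7 they held 35 to 137 tags, with a median of 51, and the shRNA5 peaks at the same places held 40 to 789, with a median of 110. The larger median upon shRNA5 was shared by 7 of the 10 genes with most gained peaks, against the order over all gained peaks, and by 5 of the 10 with each partner counted once. In all, its body held 49 peaks upon shRNA5 and 40 upon shRNA7, but 1 in control cells, 24 without doxycycline and 1 with the drug, while a TSS peak was present in all 5 lists.

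EPHA7, the gene of an ephrin receptor, had 17 gained peaks over 180 kb (chromosome 6, 93949756 to 94129306). Their tags ranged from 38 to 342 upon shRNA7, with a median of 70, and from 73 to 551 in the shRNA5 partners, with a median of 112. Its body had 39 peaks upon shRNA7, 16 upon shRNA5 and 0 in each of the 3 other lists, although all 5 lists had a peak at the TSS. The 17 gained peaks had 12 different partners and covered 23.9% of the gene.

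NIPBL, which codes for the cohesin loader, had 13 gained peaks with a median of 73 tags upon shRNA7 and 116 upon shRNA5. Only 6 of its 13 had an FDR of at most 5%, as had 14 of the 26 at SLIT2 and 13 of the 17 at EPHA7. REV3L had 12, with medians of 145.5 and 173 tags, but its 10 different partners had a median of 143.5. EIF4G3, a translation initiation scaffold gene, also had 12, with medians of 125.5 and 71 tags, but its body was rich in peaks elsewhere, with 57 upon shRNA7, 36 upon shRNA5, 28 without doxycycline and 58 with it.

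MMS22L, a gene of replication fork repair, and PHIP had 10 each, and INTS7, BDP1 and NCKAP1, for subunits of Integrator, of TFIIIB and of the WAVE complex, had 8 each. The median at PHIP was 128 tags upon shRNA7 and 68 upon shRNA5, and at INTS7 it was 91 and 86.5. The order was the opposite at BDP1, with 70.5 and 106.5, and the medians were close at MMS22L, with 113 and 114.5 (111 with each partner counted once), and at NCKAP1, with 92 and 96.5. Control body peaks numbered 4 at MMS22L, 2 at PHIP and 0 at the 3 others. An FDR of at most 5% was reached by 3 of 8 gained peaks at BDP1, 5 of 8 at INTS7 and 7 of 8 at NCKAP1. It was reached by 7 of 10 at MMS22L, 9 of 10 at PHIP, 8 of 12 at EIF4G3 and 11 of 12 at REV3L. Of these 10 genes with the most gained peaks, 5 carried a control peak at the TSS, and all 10 did so in each of the 4 other lists.

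**Figure D4:**
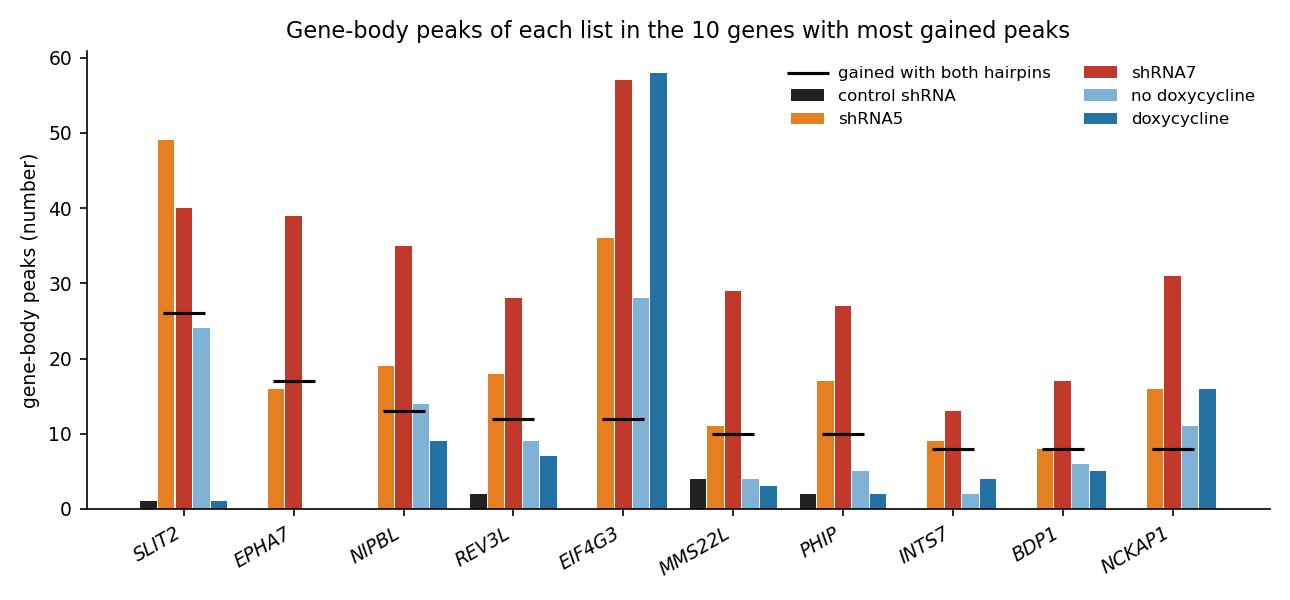
Bars give the number of gene-body peaks (y axis) of each of the 5 lists in the 10 genes with most gained peaks (x axis), and black lines mark the gained peaks. The control list has 0 to 4 such peaks per gene, whereas EIF4G3 has more with doxycycline (58) than upon shRNA7 (57).

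Gene groups were read against the 10.6% of all coding genes with a gained peak, a share that depends on length, being 4.53% of genes under 20 kb, 14.6% of those of 20 to 100 kb, 19.2% of those of 100 to 300 kb and 12.0% of longer ones. It also depends on RNAPII at the start: of the 9644 genes with an shRNA7 peak at the TSS, 1736 had a gained peak, with 22.3% of those of 20 to 100 kb and 29.3% of those of 100 to 300 kb. The 12 groups were picked with results of these data known. Importins and exportins, the carriers of nuclear transport, had 12 of 24 genes with a gained peak, at a median gene length of 65.2 kb, with 2 peaks each in IPO5, XPO7, KPNA1 and TNPO3. Of their 22 genes with an shRNA7 TSS peak, 11 had one. HECT and other large ubiquitin ligases had 10 of 22, at a median of 154 kb, among them ITCH with 4 and UBE3C and TRIP12 with 3 each, and 9 of the 20 with an shRNA7 TSS peak.

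Among factors that act on the transcript or the polymerase, 9 of 20 genes of mRNA 3′-end processing had a gained peak, among them CSTF3 with 4, WDR33 with 3, and CSTF1 and NUDT21 with 2 each. With an shRNA7 TSS peak it was 8 of 18 genes. Elongation factors and CTD kinases had 6 of 31, with 3 peaks in CDK13 and 1 each in CCNT2, IWS1 and RTF1. Spliceosome factors had 3 of 24, where CDC5L held 4 peaks and EFTUD2 and DHX15 held 1 each. Chromatin remodelling genes had 8 of 26, led by ARID1B (4) and CHD9 (3), with 2 each in SMARCA5 and BAZ1A. Histone lysine methyltransferases had 9 of 24, led by SETD5 (3) and KMT2A (2). Nucleoporins had 7 of 27, with 3 each in NUP205 and NUP98 and 2 each in NUP58 and NUP107. Among genes with an shRNA7 TSS peak the counts were 6 of 27 for elongation, 3 of 20 for splicing, 7 of 24 for remodelling, 6 of 20 for methyltransferases and 7 of 25 for nucleoporins.

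Among PI3K-like kinases 2 of 6 genes had a gained peak, SMG1 and MTOR with 1 each, and ATM and ATR had 0. The very long genes of common fragile sites had 4 of 24, with 1 peak each in EXOC4, CDH13, AUTS2 and MAGI2, at a median length of 1116 kb. Integrins and matrix ligands had 2 of 20, with 3 peaks in LAMC1 and 1 in LAMA4. With an shRNA7 TSS peak it was 2 of 11 fragile-site genes and 2 of 13 of the integrin group. Ribosomal protein genes of the large subunit, which are short, had 0 of 42, although 39 had a TSS peak upon shRNA7. Of the 6 genes whose elongation the study followed singly, OPA1 had 1 gained peak and EFNA2, KIFAP3, CTNNBL1, ITPR1 and IFT80 had 0, as did RECQL5 itself.

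Chromosomes differed in the share of shRNA7 peaks that were gained with both hairpins. Chromosomes 18 (157 of 834 peaks, 18.8%, interval 16.3 to 21.6%) and 6 (446 of 2371, 18.8%, interval 17.3 to 20.4%) were highest and chromosome 8 (65 of 807, 8.05%, interval 6.37 to 10.1%) lowest, around 12.6% for the whole list. Chromosome 6 carries 4 of the 10 genes with the most gained peaks, EPHA7, REV3L, MMS22L and PHIP, which together held 49. With all shRNA7 peaks of these 4 genes left out, its share was 17.7% (397 of 2243). Copy number of the chromosomes in these cells was not measured here, and its part was not tested.

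**Figure D5:**
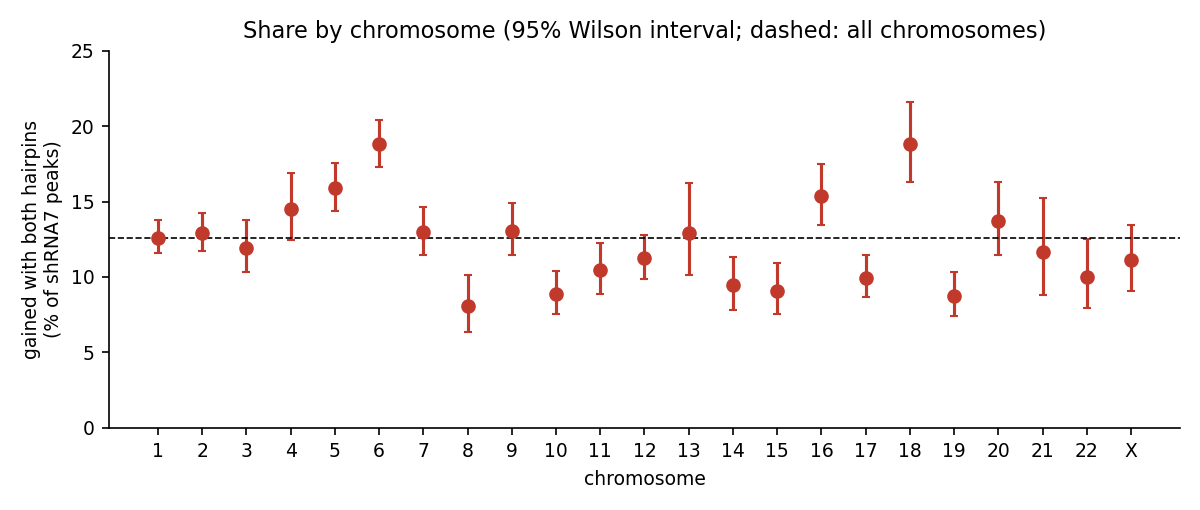
Points give the share of the shRNA7 peaks of each chromosome (x axis) that were gained with both hairpins (y axis, percent), with 95% Wilson intervals, and the dashed line marks the 12.6% of the whole list. Chromosomes 6 and 18 stand highest at 18.8%, and chromosome 8 is lowest at 8.05%.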

How the data were processed

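RNAPII ChIP-seq was measured in 5 libraries, with 4 IgG libraries as background. The authors aligned reads to hg19 with Bowtie and called peaks with MACS, library by library. The submitters' processing notes name CASAVA 1.8, Bowtie 0.12.7 and MACS 1.4.2. Each hairpin had its own IgG library, and both doxycycline lists were taken to share 1 untreated one. The deposited tags per peak are an unnormalised count. The deposited significance score is −10 times the log10 of the authors' p-value, of at least 50. The fold enrichment is the authors' ratio over local background, and the FDR was deposited in percent.

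The files gave peaks only, so total reads were not used; the study's methods describe similar read numbers among the libraries of each arm. The gained peaks and gene groups were chosen with earlier results of these data known. Overlap required at least 1 bp. Position classes used protein-coding transcripts of the GENCODE release lifted to GRCh37, which may be more recent than the authors' annotation, with the longest coding transcript standing for each gene. All peaks ended within the GRCh37 chromosomes. Peak density is tags per kb of peak.

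Named were the 8 gained peaks with the highest shRNA7 score, the 3 highest of each position class, the 10 genes with most gained peaks in the body, RECQL5 and the 6 genes followed singly by the study, and up to 4 genes of each group. One gene that this rule names is not reported here. Shares have 95% Wilson intervals and medians have order-statistic intervals. With 1 library per group no test was made. The motif window, the comparison by score and length and the summing of shRNA5 peaks were added after the data were seen. Python 3.11.15, pysam 0.24.0, SciPy 1.17.1 and samtools 1.23.1 were used. The overlap, distance and position steps were tested on simulated intervals and returned every known answer.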

Additional observations from a re-analysis of the deposited data

How the results depend on the processing

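No paired analysis was possible because every condition has a single library, and no replicate of a condition could be left out. The number of gained peaks, 4036, became 1317 when both hairpin lists were first limited to scores of at least 100, 2279 when hairpin peaks had to share 50% of each other, 2028 when the summit of any overlapping shRNA5 peak had to lie within 500 bp, 12986 when the control list alone had to be empty and 56 with a fold enrichment of at least 10. The promoter-proximal share (6.91%) became 14.3% with that fold, 8.83% by summit distance, 38.0% with the control list alone, 9.12% with a 1-kb TSS window, 23.02% with transcripts of all biotypes and 2.90% by the summit alone, an alternative chosen after seeing the data. The gene-body share (75.4%) was, in the order score, fold, mutual overlap, summit distance and control alone, 73.4, 58.9, 73.7, 72.9 and 50.6%, and with the 1-kb window, all biotypes, summit alone and counting on the shRNA5 peaks, 73.4, 66.7, 70.6 and 71.6%. Median AT content (60.6%) became 59.2% with the fold filter, 60.0% by summit distance, 59.6% on the shRNA5 peaks, 54.3% with the control list alone and 61.5% over a shorter window at the summit. The share of gene-body gained peaks in a gene with a control TSS peak (30.6%) became 32.4% by score, 54.5% by fold and 36.1% with the control list alone. No result left its counting interval, and the number stayed within 1.5 times, with an FDR of at most 5%, no other peak within 1 kb, chromosomes 1 to 22 and X, or, added after seeing the data, without the sites where an shRNA5 peak beneath touched another list. The chromosome limit left 4034 peaks, so it could move little. The highest FDR in the shRNA5 list was 1.69%, so the FDR limit acted on shRNA7 peaks alone. The fold filter left few peaks, which limits the precision of its shares. The cause of these shifts was not tested. Absence from a list means only that no peak was called.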
